A study of Homo sapiens with 4 samples.

Results

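Cystatins are inhibitors of papain-like cysteine proteases, and 8 of their genes, CST1, CST2, CST3, CST4, CST5, CST6, CSTA and CSTB, were described here. They were chosen by gene symbol from a table of 39261 genes, with CST4 among them because its count was known to be higher after TMEM126A knockdown. RNA-seq was made from 4 cultures of breast cancer cell lines with 1 library each. MDA-MB-231, a triple-negative line of mesenchymal character, carried a lentiviral construct for TMEM126A knockdown or the control vector that the design text names sh-NC. Ca1a (MCF10-Ca1a), a malignant line derived from MCF10A mammary epithelium, carried a lentiviral TMEM126A overexpression construct or the control vector pCDH. The labels do not say whether a culture was a clone or a pool of transduced cells. MDA-MB-231 was grown in L15 with fetal bovine serum, and Ca1a in DMEM/F12 with horse serum, insulin, EGF, cholera toxin and hydrocortisone, so that line and medium cannot be told apart in any difference between the lines.

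Cystatins occupy the active-site cleft of their target enzymes as reversible, tight-binding inhibitors. The stefins, CSTA and CSTB, have no signal peptide and act inside the cell. The type 2 cystatins are secreted and carry disulfide bonds. Of these, CST3 (cystatin C) is made by nearly all cells, CST6 (cystatin E/M) is found in skin and other epithelia and also inhibits legumain, and CST1 (cystatin SN), CST2 (cystatin SA), CST4 (cystatin S) and CST5 (cystatin D) are best known from saliva and tears. The main targets are the lysosomal cysteine cathepsins, which in tumours also act outside the cell on matrix proteins.

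Among the genes described here, the type 2 cystatins other than CST6 lie near each other on chromosome 20. All of these are on the minus strand of GRCh38 in GENCODE release 29. In order along the chromosome they are CST3 (23626706 to 23638473), CST4 (23685640 to 23689040), CST1 (23747553 to 23751268), CST2 (23823769 to 23826731) and CST5 (23875935 to 23879750). CST4 to CST5 span 194 kb, with 58512 bp between CST4 and CST1 and 72500 bp between CST1 and CST2. The remaining genes lie elsewhere: CST6 on chromosome 11 (66011841 to 66013505, plus strand), CSTA on chromosome 3 (122325244 to 122341972, plus strand) and CSTB on chromosome 21 (43772511 to 43776445, minus strand).

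CST1, CST2 and CST4 are close paralogs, and how far their reads can be assigned depends on the letters they share. Their coding sequences of 426 bases each were 92.7% identical between CST4 and CST1, 92.5% between CST4 and CST2 and 91.3% between CST1 and CST2. CST5 was 73.2% and CST3 71.0% identical to CST4, and CSTA and CSTB, the stefins, were 57.9% identical to each other. The second of 3 coding exons, 114 bases long in each of the 5 genes on chromosome 20, is shown whole because CST1 and CST4 share nearly all of it. It is written along the gene, with capitals at the letters that differ from CST4.
CST4 exon 2, chr20:23687088-23687201, minus strand: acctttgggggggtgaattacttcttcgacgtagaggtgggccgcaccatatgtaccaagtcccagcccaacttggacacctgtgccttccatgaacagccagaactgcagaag
CST1 exon 2, chr20:23749016-23749129, minus strand: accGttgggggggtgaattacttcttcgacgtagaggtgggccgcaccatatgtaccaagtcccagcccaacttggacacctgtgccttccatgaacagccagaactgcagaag
CST2 exon 2, chr20:23825210-23825323, minus strand: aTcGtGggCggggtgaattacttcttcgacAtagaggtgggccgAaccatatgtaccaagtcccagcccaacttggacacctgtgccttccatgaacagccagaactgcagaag
CST5 exon 2, chr20:23877505-23877618, minus strand: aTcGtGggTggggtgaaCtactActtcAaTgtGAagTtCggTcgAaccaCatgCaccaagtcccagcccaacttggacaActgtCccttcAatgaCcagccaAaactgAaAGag
CST3 exon 2, chr20:23635254-23635367, minus strand: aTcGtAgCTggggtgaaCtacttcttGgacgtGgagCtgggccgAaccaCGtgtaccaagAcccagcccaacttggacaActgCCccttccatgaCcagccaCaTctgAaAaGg
CST1 differed from CST4 at 1 position of this exon and CST2 at 6, against 24 for CST5 and 22 for CST3. The longest run that CST1 and CST4 transcripts share letter for letter was 152 bases and ran on from this exon into the third, and CST2 shared a run of 87 bases with each of them.

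Of the 702 windows of 50 bases in the CST4 transcript, 212 (30.2%) occurred unchanged in a CST1 or CST2 transcript. The share was 27.3% for CST1, 8.30% for CST2 and 0.283% for CST5. No window of CST3, CST6, CSTA or CSTB occurred in a transcript of another gene. With windows of 100 bases the share was 8.13% for CST4 and 8.02% for CST1, and 0 of 649 windows of CST2 were shared. The labels give neither the read length nor the treatment of reads with several matches, so the split of reads among CST1, CST2 and CST4 is uncertain.

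**Figure D1:**
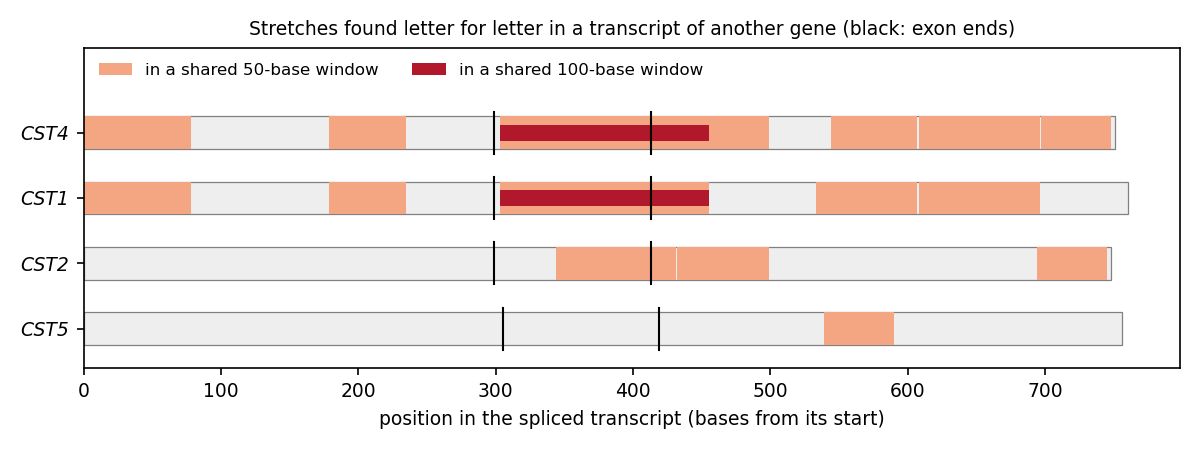
Spliced transcripts of CST4, CST1, CST2 and CST5 drawn to scale in bases from the transcript start, with stretches that lie in a 50-base window (orange) or a 100-base window (red) found unchanged in a transcript of another gene; black lines mark exon ends. Shared stretches cover much of CST4 and CST1, with 30.2% and 27.3% of 50-base windows, and less of CST2, with 8.30%.

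Libraries held 20673373 to 21405193 reads assigned to genes. TMEM126A, which encodes a mitochondrial inner membrane protein, followed the labels: it had 22.9 normalized counts under knockdown, against 559 in its control, and 9381 counts under overexpression, against 265 in its control. The lines matched their names in most defining markers. The epithelial adhesion gene EPCAM stood at 2.62 to 3.10 FPKM (fragments per kilobase of transcript, scaled to library depth) in MDA-MB-231 and 131 to 133 FPKM in Ca1a, and the mesenchymal filament gene VIM at 707.5 to 721 FPKM in MDA-MB-231 and 74.8 to 90.5 FPKM in Ca1a. The epithelial keratin gene KRT19 went against this, at 163 to 220.4 FPKM in MDA-MB-231 and 1.04 to 1.61 FPKM in Ca1a, and the mesenchymal markers SPARC and CDH2 reached at most 0.563 FPKM in any library. Of 6 markers of other cells, the fat cell marker ADIPOQ was listed at 0 and the leukocyte marker PTPRC reached at most 0.0178 FPKM. The macrophage markers were present, CD68 at 28.9 to 98.6 FPKM and CD14 at 1.35 to 4.65 FPKM, and so was the fibroblast collagen gene COL1A1, at 0.813 to 1.79 FPKM. The endothelial marker PECAM1, at 0.400 to 1.36 FPKM, was 1.88-fold higher (1.45 to 2.45) under knockdown and 1.66-fold higher (1.39 to 1.98) under overexpression. The part of these genes in the results was not tested. With no replicates, no difference below has a replicate check. The 95% intervals hold counting error alone, without the spread between cultures.

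Of the 8 genes, 7 fell into 3 patterns of level over the libraries, and CST5 was barely detected. CST1, CST2 and CST4 were transcribed in MDA-MB-231 and listed at 0 in Ca1a, CSTA was the reverse, and CSTB, CST3 and CST6 were present in both lines. CSTB, whose loss causes a progressive myoclonus epilepsy, was the highest of the 8 in every library, at 210 FPKM under knockdown, 209 FPKM in the MDA-MB-231 control, 201 FPKM under overexpression and 175 FPKM in the Ca1a control. CST3 followed it in MDA-MB-231, at 70.7 FPKM under knockdown and 64.0 FPKM in the control. In Ca1a CST3 was far lower, at 10.0 and 13.8 FPKM in the overexpression and control libraries. There the second place belonged to CSTA, a precursor of the cornified envelope of squamous epithelium, at 55.8 and 60.5 FPKM.

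CST6 stood at 22.8 FPKM under knockdown and 26.8 FPKM in its control, and at 13.2 and 13.0 FPKM in the overexpression and control libraries of Ca1a. CST1 had 22.2 FPKM under knockdown and 12.7 FPKM in its control. CST2 had 17.9 and 12.4 FPKM in these libraries. CST4 had 17.3 FPKM under knockdown and 8.32 FPKM in its control. In the MDA-MB-231 control CST1 and CST2 were thus level with each other and CST4 was the lowest of the 3, while under knockdown CST4 and CST2 were nearly level. CST5 had 3 reads under knockdown and 0 in the other 3 libraries, which gives no fold, as a count of 0 allows up to 3 reads.

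**Figure D2:**
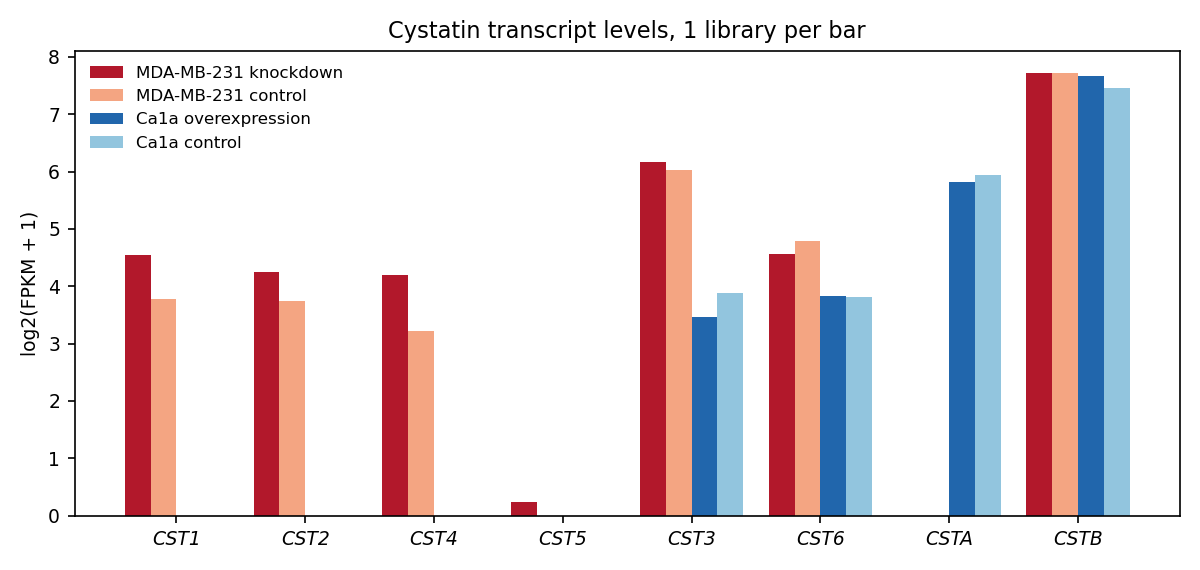
Levels of the 8 cystatin genes as log2(FPKM + 1), with 1 bar per library: TMEM126A knockdown and control vector in MDA-MB-231, then TMEM126A overexpression and control vector in Ca1a. CST1, CST2 and CST4 have bars in MDA-MB-231 only and CSTA in Ca1a only, while CSTB is the tallest in all 4 libraries, at 175 to 210 FPKM.

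Between the control libraries of the lines, 5 of the 7 cystatin genes that reached 1 FPKM in either of them differed at least 2-fold on log2(FPKM + 1). Of 12101 genes with such a level, 21.7% were at least 2-fold higher in MDA-MB-231 and 11.3% at least 2-fold lower. The 4 higher genes were CST1, CST2, CST3 and CST4, and the lower one was CSTA. CST3 was 4.65-fold higher in MDA-MB-231 by FPKM, and 4.66-fold (4.33 to 5.02) by reads per total reads. CST6 was 2.06-fold higher by FPKM and 1.84-fold (1.51 to 2.25) by reads. It stood just under 2-fold on the log2 scale, at 0.99. CSTB was close to even, at 1.19-fold by FPKM and 1.17-fold (1.11 to 1.23) by reads. Read counts of the lines come from separate tables and were set against each other per total reads. With the floor of 3 reads in place of each 0, and leaving out the error of the other count, CST1 was at least 76.3-fold, CST2 at least 77.3-fold and CST4 at least 57.4-fold higher in MDA-MB-231, and CSTA at least 364-fold lower. With the error of both counts, the lower 95% limits of these ratios were 61.5 for CST1, 62.3 for CST2 and 46.1 for CST4, and the upper limit for CSTA was a ratio of 0.00339.

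The first comparison in which TMEM126A was changed set the knockdown library against its control in MDA-MB-231. CST4, CST1 and CST2 were all higher under knockdown, CST3 was slightly higher, and CST6 and CSTB lay within counting error. CST4 had 349 normalized counts under knockdown (313 to 387) and 168 in the control (144 to 196), giving a ratio of 2.08 (1.72 to 2.51). CST1 had 399.5 normalized counts under knockdown (361 to 441) and 223 in the control (195 to 255), giving a ratio of 1.79 (1.51 to 2.12). CST2 had 344 normalized counts under knockdown (309 to 382) and 226 in the control (198 to 258), giving a ratio of 1.52 (1.28 to 1.80). In none of the 3 genes did the intervals of the libraries overlap, but how many of all tested genes do the same was not counted. By the interval of the ratio, 16.8% of 13292 tested genes were higher beyond counting error. Nothing is read from the intervals, since CST4 was chosen with its higher count known. Ratios of FPKM were 2.08 for CST4, 1.76 for CST1 and 1.45 for CST2, and on log2(FPKM + 1) CST4 was just under 2-fold, at 0.97.

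CST3, the cystatin of most tissues, had 4423 normalized counts under knockdown and 3910 in the control, giving a ratio of 1.13 (1.08 to 1.18). CST6 had 245 normalized counts under knockdown and 282 in the control, giving a ratio of 0.871 (0.731 to 1.04). CSTB had 3653 and 3561 normalized counts in these libraries, giving a ratio of 1.03 (0.979 to 1.07). The intervals of CST6 and CSTB include 1, which does not show that they were the same in both libraries. CSTA was listed at 0 in both MDA-MB-231 libraries. Of the 8 genes, 6 averaged 20 or more normalized counts over both libraries and could be called. Among them 1, CST4, was at least 2-fold higher with an interval that leaves out 1, beside 0.248% of all 13292 tested genes; 0 were at least 2-fold lower, beside 0.143%. In all, 4 of the 6 were higher beyond counting error and 0 were lower, beside 16.8% and 11.3% of all tested genes. Their median log2 ratio was 0.39, against 0.01 over all tested genes. Nothing is read from these counts and this median, since the genes were chosen with the higher count of CST4 known.

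By log2 ratio CST4 ranked 26 of 13292 tested genes from the top, CST1 68 and CST2 233. Many of the genes above them had few reads: among the 11091 genes with a mean of at least 100, CST4 ranked 3, CST1 11 and CST2 61. CST3 ranked 1317 and CSTB 4633 among these, and CST6 10341. In the authors' deposited table the adjusted p-value was 0.00253 for CST4, 0.0218 for CST1 and 0.535 for CST2, and it was 1 for CST3, CST6 and CSTB. Those p-values also rest on 1 library per group. The genes were chosen with the higher count of CST4 known, so nothing is read from these ranks and p-values.

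**Figure D3:**
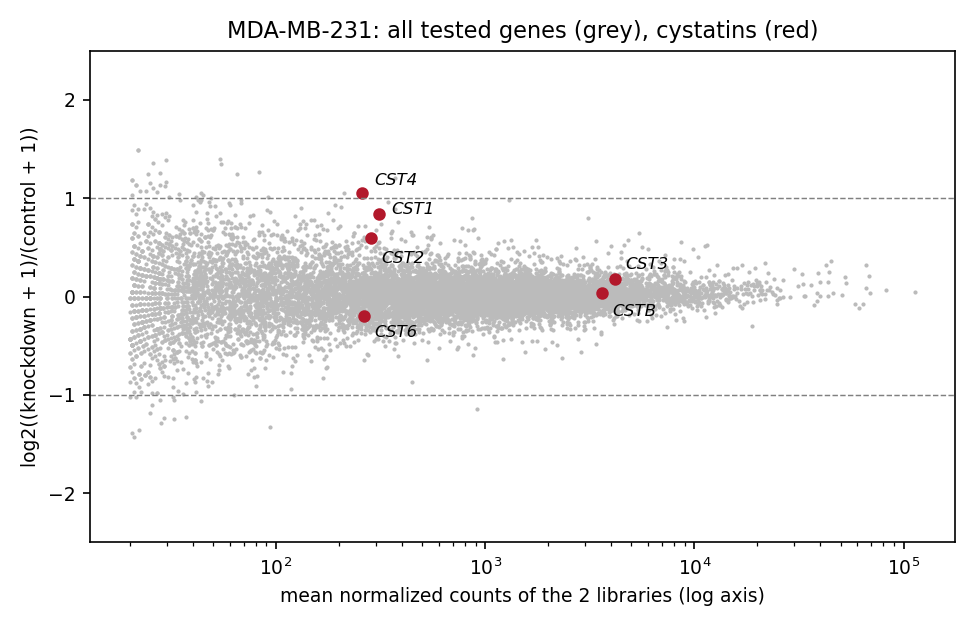
Log2 ratio of knockdown over control, as log2((knockdown + 1)/(control + 1)), against the mean normalized counts of both MDA-MB-231 libraries (log axis) for the 13292 tested genes (grey), with 6 cystatins in red and dashed lines at 2-fold; 1 gene, TMEM126A, lies outside the axis. CST4, CST1 and CST2 sit near the upper edge of genes of like abundance, and CST6, CST3 and CSTB inside the cloud. The genes were chosen with the higher count of CST4 known.

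Because reads of CST1, CST2 and CST4 may be exchanged in counting, they were also summed. The 3 genes together had 1092 normalized counts under knockdown (1029 to 1159) and 618 in the control (569.9 to 669), giving a ratio of 1.77 (1.60 to 1.95). The sum stayed under 2-fold, whereas CST4 counted alone was past it. As the sum holds CST4, chosen with its higher count known, nothing is read from its being higher under knockdown. CST4 made up 31.9% of these reads under knockdown (exact binomial interval 29.2% to 34.8%) and 27.2% in the control (23.7% to 30.9%). CST2 made up 31.5% under knockdown (28.7% to 34.3%) and 36.6% in the control (32.8% to 40.6%). CST1 held 36.6% and 36.2% in these libraries. The intervals of the shares overlapped between the libraries for each of the 3 genes, which does not show that the shares were the same.

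In all, 6 pairs of ratios were set against each other, with intervals not adjusted for their number. The CST4 ratio was 1.37 times that of CST2 (1.06 to 1.77), 1.16 times that of CST1 (0.900 to 1.5) and 1.84 times that of CST3 (1.51 to 2.23). The CST1 ratio was 1.18 times that of CST2 (0.925 to 1.5) and 1.58 times that of CST3 (1.33 to 1.88). CST2, the least changed of the 3, had a ratio 1.34 times that of CST3 (1.13 to 1.60). The order of CST4 and CST1 was within counting error. The pairs with CST4 describe a difference that was part of the choice of genes. Each other pair holds CST1 or CST2, which may exchange reads with CST4, so nothing is read from any of the 6 pairs.

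The second comparison set TMEM126A overexpression against its control in Ca1a, where only 4 of the 8 genes had enough reads. CST3 was lower under overexpression, CSTB was slightly higher, and CSTA and CST6 lay within counting error. CST3 had 629 counts under overexpression (581 to 680.1) and 859 in the control (803 to 918), giving a ratio of 0.732 (0.660 to 0.813), or 1.37-fold lower. CSTB had 3546 counts under overexpression (3430 to 3665) and 3118 in the control (3010 to 3229), giving a ratio of 1.14 (1.08 to 1.19). The intervals of the libraries did not overlap for either gene, but how many of all tested genes do the same was not counted. CSTA had 1082 and 1124 counts in the overexpression and control libraries, giving a ratio of 0.963 (0.885 to 1.05). CST6 had 146 and 157 counts, giving a ratio of 0.930 (0.737 to 1.17), and its direction turned with FPKM. None of the 4 was past 2-fold, which 0.256% of 12111 tested genes were on the higher side and 0.297% on the lower. Beyond counting error 1 of 4 was higher and 1 lower, beside 18.1% and 16.2% of all tested genes. Their median log2 ratio was -0.08, against 0.01 over all tested genes. In the authors' deposited table the adjusted p-value was 0.768 for CST3 and 1 for CSTB, CSTA and CST6.

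**Figure D4:**
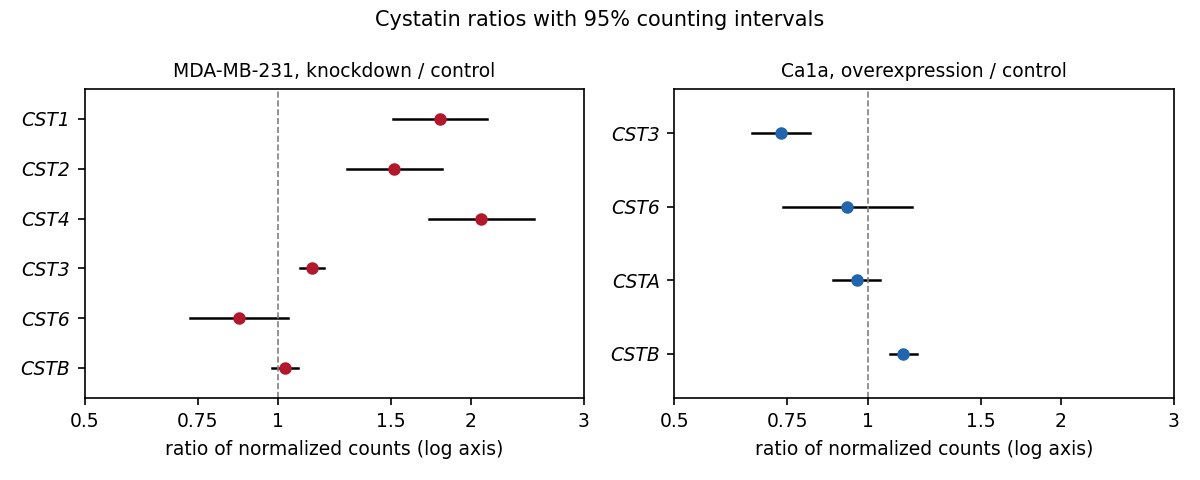
Ratios of normalized counts (log axis) for the cystatins with a mean of at least 20, TMEM126A knockdown over control in MDA-MB-231 (left) and TMEM126A overexpression over control in Ca1a (right); points are ratios, lines 95% counting intervals and the dashed line a ratio of 1. CST4, CST1, CST2 and CST3 lie right of 1 on the left side, at 2.08, 1.79, 1.52 and 1.13, and CST3 lies left of 1 on the right side, at 0.732.

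CST1, CST2 and CST4 had 0 reads in both Ca1a libraries, so that no ratio can be given for them and nothing can be said of their answer to overexpression. CST3 is the member that stood beyond counting error in both lines, higher under knockdown of MDA-MB-231 (1.13) and lower under overexpression of Ca1a (0.732). The constructs, lines and media all differ between these comparisons, and the difference between them was not tested. Summed over the 8 genes, cystatins had 9417 normalized counts under knockdown and 8371 in its control, giving a ratio of 1.12 (1.09 to 1.16). In Ca1a the sum was 5403 counts under overexpression and 5258 in its control, giving a ratio of 1.03 (0.989 to 1.07). For the 6 type 2 genes alone the ratio was 1.2 (1.15 to 1.25) in the knockdown comparison and 0.763 (0.694 to 0.838) in the overexpression comparison, in which CST3 and CST6 are the type 2 genes with reads. The sums of the knockdown comparison hold CST4, chosen with its higher count known, and CST1 and CST2, which may share its reads. Nothing is read from them or from their contrast with Ca1a.

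The genes whose pattern was most like that of CST4 were sought over the 4 libraries, by the Euclidean distance of log2(FPKM + 1) after centring each gene, among 12311 genes with at least 1 FPKM in a library. The 5 nearest were RASD1, a Ras-like GTPase gene (distance 0.301), SPDEF, an ETS transcription factor gene of secretory epithelia (0.430), CST2 (0.437), ADAMTS15, a matrix protease gene (0.446), and CST1 (0.472). RASD1 had 13.3 FPKM under knockdown, 7.0 FPKM in its control and 0 in both Ca1a libraries, and a count ratio of 1.95 (1.66 to 2.29). SPDEF had 12.1 FPKM under knockdown and 7.35 FPKM in its control, a count ratio of 1.74 (1.58 to 1.92), and at most 0.0311 FPKM in Ca1a. ADAMTS15 had 15.1 FPKM under knockdown and 11.7 FPKM in its control, a count ratio of 1.32 (1.24 to 1.41), and at most 0.121 FPKM in Ca1a. These values describe genes picked for their likeness to CST4 and support nothing.

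Other secretory genes of saliva were nearly all without reads beside the salivary cystatins. Of 20 such genes, among them amylase (AMY1A), statherin (STATH), histatin (HTN1) and MUC7, 18 had 0 reads in all 4 libraries. Some of these, such as the amylase and proline-rich protein genes, have near-identical copies, so that they are only listed at 0. Counts of 0 were common, as 17432 to 20111 of all 39261 genes had reads in a given library. The exceptions among the 20 genes were the lactoperoxidase gene LPO, with 1 read under knockdown, and the airway and salivary mucin gene MUC5B. MUC5B was low at 0.139 FPKM under knockdown and 0.0522 FPKM in its control, and was 2.69-fold higher (1.74 to 4.27) by counts, and 2.67-fold by FPKM. At such a low level the pseudocount ended the call on log2(FPKM + 1), where the difference was 0.11. In Ca1a MUC5B had 11 counts under overexpression and 4 in the control, too few to be tested. The one other type 2 cystatin with reads was CST7 (cystatin F), which in leukocytes regulates the activation of cathepsin C. It moved the other way from CST4, with 281 normalized counts under knockdown and 355 in its control, 1.26-fold lower (1.08 to 1.48), and it had 0 reads in Ca1a. CST8, CST9, CST9L, CST11 and CSTL1, the other cystatin genes of the cluster in the lists, had 0 reads in every library.

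Genes that flank the cluster on chromosome 20 were counted as well. Of 6 tested in the knockdown comparison 2 were higher and 0 lower beyond counting error, beside 16.8% and 11.3% of all tested genes. These were THBD, the thrombomodulin gene, 1.31-fold higher (1.25 to 1.37), and ACSS1, a mitochondrial acetyl-CoA synthetase gene, 1.32-fold higher (1.11 to 1.56). NXT1, GZF1, NAPB and APMAP had ratios of 0.924 to 1.07. The median log2 ratio of the 6 was 0.04, against 0.01 over all tested genes, and the highest ratio among them was 1.32. In the overexpression comparison 0 of 5 were higher and 1 lower, beside 18.1% and 16.2% of all tested genes. The lower one was GZF1, 1.22-fold lower (1.10 to 1.35).

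The targets of the cystatins, 11 cysteine cathepsins and legumain (LGMN), were all in the table. In the knockdown comparison 7 of 11 tested were higher beyond counting error and 2 lower, beside 16.8% and 11.3% of all tested genes. Their median log2 ratio was 0.10, against 0.01 over all tested genes. An interval leaves out 1 more readily where reads are many, and the shares over all tested genes were not matched for reads. Among the higher targets CTSZ had a ratio of only 1.05 (1.02 to 1.09) and CTSC of 1.13 (1.08 to 1.18). The lysosomal protease CTSZ had the highest level per length, at 191 FPKM under knockdown and 185 FPKM in its control, and CTSB the most reads, with 12886 normalized counts under knockdown and 10671 in its control, giving a ratio of 1.21 (1.18 to 1.24). CTSF was 1.27-fold higher (1.16 to 1.39), CTSH 1.14-fold higher (1.03 to 1.26) and LGMN, the asparagine-specific protease that CST6 and CST3 also inhibit, 1.14-fold higher (1.06 to 1.21). The lower genes had few reads. They were CTSW, known from cytotoxic lymphocytes, 2.13-fold lower (1.34 to 3.47), and CTSK, the collagen-degrading cathepsin of osteoclasts, 1.55-fold lower (1.12 to 2.15). The call of CTSW ended with a pseudocount of 5 (log2 ratio -0.97) or on log2(FPKM + 1), at -0.51, while the ratio of FPKM itself was 0.520. Summed over the 12 genes the targets had 33499 normalized counts under knockdown and 29742 in its control, giving a ratio of 1.13 (1.11 to 1.14), beside 1.12 (1.09 to 1.16) for the 8 cystatins. The cystatin sum holds CST4, and nothing is read from this likeness.

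In Ca1a 4 of 9 tested targets were higher beyond counting error and 2 lower, beside 18.1% and 16.2% of all tested genes. Their median log2 ratio was 0.08, against 0.01 over all tested genes. Here too, the shares over all tested genes were not matched for reads. CTSH was 1.25-fold higher (1.10 to 1.42) and CTSZ 1.12-fold higher (1.06 to 1.18), whereas CTSB was 1.29-fold lower (1.23 to 1.37) and CTSL 1.23-fold lower (1.14 to 1.32). Like CST3, CTSB and CTSL were thus higher under knockdown of MDA-MB-231, CTSL with a ratio of 1.07 (1.02 to 1.13), and lower under overexpression of Ca1a. CTSC, CTSH and CTSZ were instead higher beyond counting error in both comparisons, CTSC with a ratio of 1.06 (1.004 to 1.12) under overexpression. How many of all genes did either was not counted. Summed, the 12 targets had 12348 counts under overexpression and 12543 in its control, giving a ratio of 0.984 (0.960 to 1.01). The aspartic protease CTSD, which cystatins do not inhibit, was 1.18-fold higher (1.16 to 1.19) under knockdown and 1.10-fold higher (1.08 to 1.13) under overexpression.

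**Figure D5:**
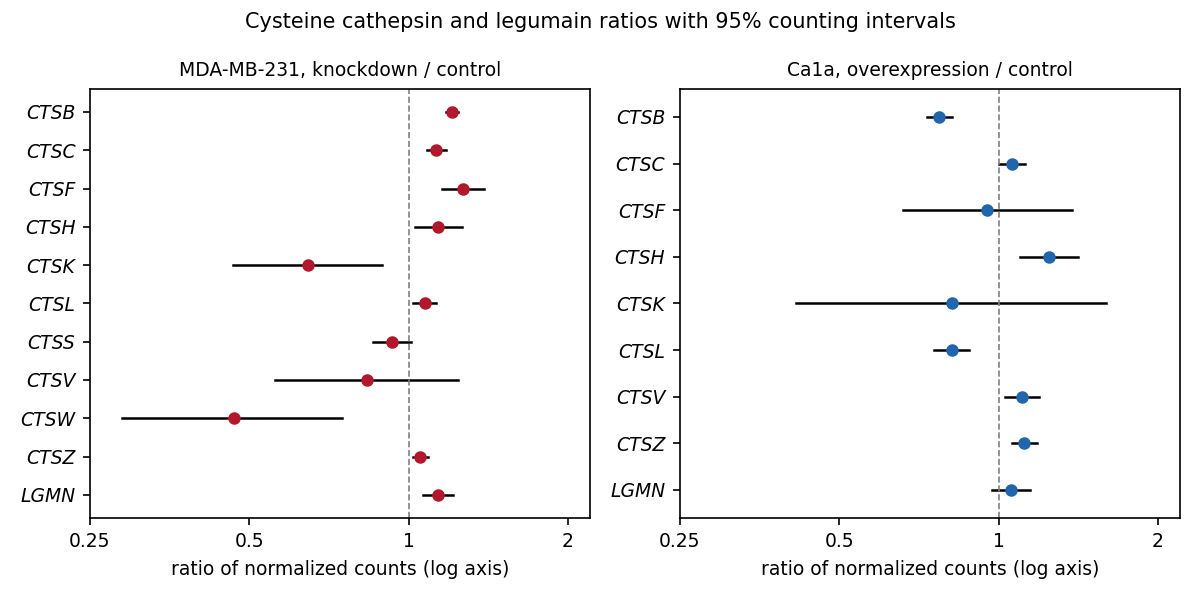
Ratios of normalized counts (log axis) for the cysteine cathepsins and legumain with a mean of at least 20, TMEM126A knockdown over control in MDA-MB-231 (left) and TMEM126A overexpression over control in Ca1a (right), with 95% counting intervals as lines and a dashed line at 1. CTSB lies at 1.21 on the left and 0.773 on the right, and CTSW, at 0.469, is the lowest on the left.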

How the data were processed

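RNA was extracted with TRIzol and libraries followed standard Illumina protocols, per the labels' protocols. Per the submitters' processing notes the tools were HISAT2, Cufflinks, HTSeq and DESeq, on GRCh38.p5 (hg38); their versions, roles and strand setting are not given. Ca1a values are read counts, deposited as whole numbers under headers that name DESeq base means. Their size factor came out as 1 in both libraries, so normalized counts of Ca1a are these counts as they stand. MDA-MB-231 values are a deposited signal: per the file headers, DESeq base means, that is counts over a size factor. The smallest value above 0 divided 100% of them without remainder (tolerance 1e-06), so the quotients served as reads. The authors also deposited a ratio (fold change), a log2 fold change and a p-value per gene, and FPKM with an unstated denominator.

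Levels carry exact Poisson intervals. Ratios carry Clopper-Pearson conditional intervals at 95%. Reads carry no molecular identifiers and may be PCR copies, so intervals and limits cover counting error alone. A gene was tested if its 2 libraries averaged 20 or more normalized counts. It was called if log2(value + 1) differed by at least 1 and the ratio's interval left out 1. Printed folds have no pseudocount. Calls were tested on simulated counts that hold counting error alone, which says nothing of the spread between cultures. The members, lists and tests were chosen with earlier results of these data known. Named genes were the 8 members, TMEM126A, markers, the 5 genes nearest to CST4, and of each of the other 7 lists the called members and those with the largest log2 ratios, up to 6 per comparison. Further genes of these lists, and of those at 0, were named after their values were seen.

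Transcripts, exons and positions come from GENCODE release 29 on GRCh38. Coding identity is from global alignment. A sequence comparison of another exon is not reported here. Software was python 3.11.15 (numpy 2.4.6, pandas 2.3.3, scipy 1.17.1, biopython 1.88, matplotlib 3.10.9). TMM factors came from edgeR 4.0.16 in R 4.3.3.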

Additional observations from a re-analysis of the deposited data

How the results depend on the processing

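No paired analysis was possible because each group holds 1 library, and no replicate could be left out. Against 1 cystatin called in the knockdown comparison, a 1.5-fold threshold called 3 (CST4, CST1 and CST2), and a 3-fold threshold or FPKM called 0. The log2 ratio of CST4 was 1.05, and it fell under 1 with FPKM (0.97) and with CST1, CST2 and CST4 summed (0.82, added after seeing the data). In the overexpression comparison 0 cystatins were called under every alternative run. Against 52 genes called in all in the knockdown comparison there were 25 with a pseudocount of 5, 210 with a mean of at least 5, 261 with no filter, 288 at 1.5-fold, 1 at 3-fold and 4 with FPKM. Against 67 in the overexpression comparison there were 168 with a mean of at least 5, 196 with no filter, 314 at 1.5-fold, 10 at 3-fold and 5 with FPKM. Filters and thresholds change the rule by construction, and a pseudocount of 1 weighs more on FPKM of this size than on counts. FPKM turned CST6 to 0.018 and CTSF to 0.046 in the overexpression comparison, and the cause was not tested. Total reads and TMM moved the median log2 ratio by at most 0.032 in size, and protein-coding genes alone changed no count by over 1.5 times. Between the controls 5 cystatins were past 2-fold by FPKM or by reads per total reads, and with a pseudocount of 0.1 CST6 was also past it, at a log2 ratio of 1.04. Few reads limit CST5, CTSW and MUC5B.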

Other observations

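Genes of the cornified envelope, of which CSTA is a precursor, were mostly low or absent in both lines. In the overexpression comparison 3 of 8 tested were higher and 1 lower beyond counting error, beside 18.1% and 16.2% of all tested genes, with a median log2 ratio of 0.23 against 0.01 over all tested genes. The periplakin gene PPL had 24664 counts under overexpression and 18221 with the control vector, 1.35-fold higher (1.33 to 1.38), and the epidermal protease gene KLK5 was 1.32-fold higher (1.10 to 1.57). TGM5, a transglutaminase gene, was 1.71-fold higher (1.26 to 2.34). SPRR2D, on 15 and 36 counts in the overexpression and control libraries, was 2.40-fold lower (1.28 to 4.72). CSTA itself lay within counting error. PPL was also higher in the knockdown library of MDA-MB-231, 1.55-fold (1.37 to 1.75). It was the only one of 4 tested there beyond counting error, beside 16.8% of all tested genes higher and 11.3% lower.

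Inhibitor genes SERPINB3 and FETUB had more reads in Ca1a with the TMEM126A construct. SERPINB3, a serpin that inhibits cysteine cathepsins, had 68 counts under overexpression and 29 with the control vector, 2.34-fold higher (1.5 to 3.76). It has a near-identical copy, SERPINB4, with 4 and 1 counts in these libraries. FETUB, a liver-type member of the cystatin superfamily, had 64 and 33 counts, 1.94-fold higher (1.26 to 3.05). Both were listed at 0 in MDA-MB-231. The proline-rich protein gene PRH1 had 0 reads in all 4 libraries but 0.0288 to 0.0936 FPKM in 3 of them, so that the 2 deposited measures do not match for it.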
